A study of Mus musculus with 36 samples.

Results

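Transforming growth factor beta (TGF-beta) and activin A are secreted signals of one protein family, and 10 genes of their pathway were followed in mouse knees with and without injury to the anterior cruciate ligament (ACL). The genes were taken from a list by name and matched to the gene names of the deposited count table, where all 10 of 10 were found among 55291 genes. They were the TGF-beta isoforms Tgfb1, Tgfb2 and Tgfb3, the activin A subunit Inhba, the latent binding proteins Ltbp1 and Ltbp2, the receptors Tgfbr1 and Tgfbr2, and the inhibitors Smad7 and Skil. The 3 groups were inhibitor knees (ACL_PKCi), with ACL injury and a protein kinase C (PKC) inhibitor, vehicle knees (ACL), with ACL injury and saline, and sham knees (Sham), with no ACL injury. Each group had 3 libraries, which the series' design calls biological replicates, and all were collected at 24 h. The inhibitor's name and dose, and the strain, genotype, age and sex of the mice, are not given in the sources used here. The sample labels name knee joint tissue, whereas the extraction protocol names knee joint cartilage for these 9 libraries. The comparisons ask which transcripts differed after injury and which differed when PKC was inhibited after injury.

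TGF-beta is secreted in a latent complex that binding proteins such as Ltbp1 hold in the extracellular matrix, and it must be released before it can act. Active TGF-beta or activin binds a type II receptor, which recruits a type I receptor, and the pair phosphorylates SMAD proteins that enter the nucleus and change transcription. Smad7 and SnoN, the product of Skil, are induced by the pathway and restrain it, and in joints the pathway is known for its part in cartilage maintenance and in fibrosis of the synovium.

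Libraries held between 124.3 M and 202.1 M counts each, of which 91.2% to 98.2% fell on the genes of 7SL RNA, an abundant noncoding RNA. Counts outside these genes numbered 3.28 M to 11.9 M, with 1.09 M to 4.51 M on protein-coding genes. A normalised count is a count scaled to the mean effective library size. The effective size is the library size times a scaling factor computed over the 13823 genes tested. These factors ran from 0.63 (vehicle library 1) to 3.64 (inhibitor library 2). Inhibitor libraries 1 and 2 stood apart with 7SL shares of 91.5% and 91.2%. Markers of several tissues were present, and every gene of the cartilage list and of the muscle list had a count. The summed normalised counts of 10 cartilage genes were 1654 to 4525 in inhibitor, 7581 to 10290 in vehicle and 7877 to 24222 in sham libraries. Those of 10 skeletal muscle genes were 35111, 3006 and 6161 in inhibitor libraries 1 to 3, 6510 to 8492 in vehicle libraries and 11001 to 27624 in sham libraries. The part of this tissue mixture in the results below was not tested, and in such bulk samples fewer cells of a type and less RNA per cell cannot be told apart.

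Inhba, Ltbp2 and Smad7 were higher in every vehicle library than in every sham library, and Tgfb1 and Smad7 were lower in every inhibitor library than in every vehicle library. In either direction, 17% of all genes tested were separate in the first way and 18.9% in the second. No member passed the threshold of an adjusted p under 0.05 in any of the 3 comparisons (edgeR's quasi-likelihood test, two-sided, Benjamini-Hochberg adjustment over 13823 genes). All 10 members passed the filter on low counts and were tested. Between vehicle and sham knees 0.304% of all genes tested were called, 0.282% as higher and 0.0217% as lower. Between inhibitor and vehicle knees 0.731% were called, 0.0289% as higher and 0.702% as lower. Between inhibitor and sham knees 3.95% were called, 1.27% as higher and 2.68% as lower. At an unadjusted p under 0.05, 3 members differed between vehicle and sham knees, beside 8.28% of all genes. For inhibitor against vehicle knees 2 members did, with a background of 13.4%, and for inhibitor against sham knees also 2, with a background of 18%. DESeq2 called 1 member for vehicle against sham knees, 0 for inhibitor against vehicle knees and 1 for inhibitor against sham knees, beside 1.13%, 2.58% and 6.69% of the genes to which it gave an adjusted p. The vehicle libraries enter a pair of these comparisons, as do the sham and the inhibitor libraries, so the comparisons are not independent.

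Some markers of other cells also differed between these groups. The summed level of 4 synovial lining genes, all with counts, was 1202 to 3226 in inhibitor, 4566 to 6571 in vehicle and 682 to 2003 in sham libraries. Most of this sum was Prg4, at 1095 to 3150 in inhibitor, 4422 to 6431 in vehicle and 545 to 1856 in sham libraries. Of these 4, Prg4 and Has2 were higher in every vehicle than in every sham library. Their log2 fold changes were 2.33 and 2.48 (edgeR adjusted p = 0.135 and 0.150). Htra4 and Cd55 went the other way, with log2 fold changes of -1.93 and -0.28 (edgeR adjusted p = 0.655 and 0.888). Of 10 monocyte and macrophage genes 4 were separate in that way (Cd14, Fcgr1, Ccr2 and Cd68), beside 8.20% of all genes tested. Cd14 had the largest log2 fold change of them, 3.06 (edgeR adjusted p = 0.152). The rest of the list lay between -0.16 (Lyz2) and 0.33 (Adgre1). The sums of the list overlapped, at 2439 to 3784 in vehicle and 2328 to 2887 in sham libraries. All 8 neutrophil genes had a log2 fold change below 0 for vehicle over sham, 5 without overlap. Of all genes tested, 8.76% were lower without overlap. Ltf, which encodes lactotransferrin, fell (log2 fold change -1.41, edgeR adjusted p = 0.0288). The part of these cells in the values of the members was not tested.

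The list as a whole was spread on both sides of zero in each comparison. For vehicle over sham, 6 of 10 members had a log2 fold change above 0 and the median was 0.24, against 48.1% of genes above 0 and a median of -0.02 over all genes tested. For inhibitor over vehicle, 6 of 10 were above 0 with a median of 0.02, against 53.8% and a median of 0.04. For inhibitor over sham, 6 of 10 were above 0 with a median of 0.41, against 52.4% and a median of 0.03. The members were chosen with earlier results of these data known, and these medians were not tested. The members are described by role below.

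**Figure D1:**
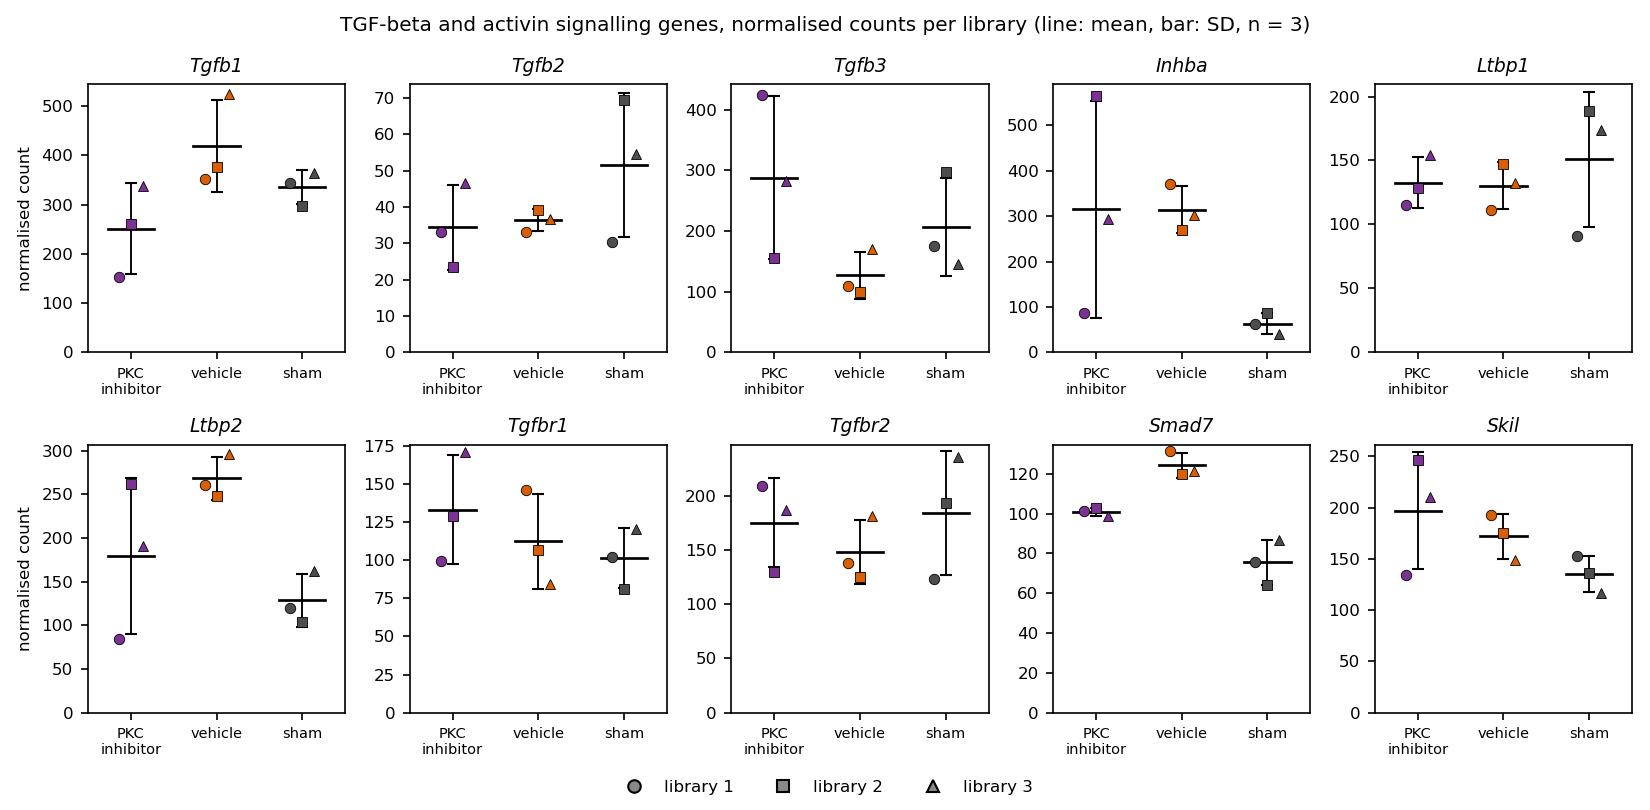
Normalised counts (y axis, linear from 0) of the 10 genes in the 9 libraries. Each point is a library, the horizontal line is the group mean and the bar is the SD (n = 3 per group). The inhibitor libraries spread from 87.0 to 563.7 for Inhba, while the vehicle libraries lie between 269.8 and 370.5 and the sham libraries between 39.6 and 86.5.

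Among the ligands, Inhba, whose product forms the activin A dimer, had the largest difference between groups of the 10 members. Its normalised counts were 87.0, 563.7 and 293.4 in inhibitor libraries 1 to 3, 370.5, 269.8 and 301.5 in vehicle libraries 1 to 3, and 62.8, 86.5 and 39.6 in sham libraries 1 to 3. All 3 vehicle libraries lay above all 3 sham libraries, and the inhibitor libraries scattered from just above the sham range to above the vehicle range. The counts behind these values were 116, 1447 and 226 reads in inhibitor libraries, 223, 227 and 221 in vehicle libraries, and 54, 66 and 21 in sham libraries. Inhba had a mean of 314 ± 51.5 in vehicle knees and of 63.0 ± 23.5 in sham knees (SD, n = 3 each), a 4.91-fold difference with a log2 fold change of 2.29 (SE 0.65, 95% interval 0.78 to 3.81). The edgeR p was 0.00866 and the adjusted p was 0.324, so the difference did not pass the threshold.

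The inhibitor knees had a mean Inhba level of 315 ± 239 normalised counts, close to the vehicle mean of 314 ± 51.5 but with a spread several times as wide. The log2 fold change of inhibitor over vehicle was 0.01 with a 95% interval of -1.36 to 1.39, so that changes of more than 2-fold in either direction lie within the interval. Against sham knees the log2 fold change was 2.31 (SE 0.65, 95% interval 0.80 to 3.82, edgeR adjusted p = 0.106). The lowest inhibitor library, at 87.0, was barely above the highest sham library, at 86.5. That inhibitor library 1 also had the highest muscle sum of the 9 libraries, 35111, and inhibitor library 2, with the highest Inhba level, had the lowest, 3006. With the muscle level of each library as a covariate, Inhba had a log2 fold change of 1.55 for vehicle over sham (edgeR adjusted p = 0.00309) and of 1.36 for inhibitor over sham (edgeR adjusted p = 0.0022). This covariate, a mean log2 level, was 1.18 to 1.70 in vehicle and 2.17 to 3.46 in sham libraries, without overlap. Muscle level and group thus cannot be fully told apart between vehicle and sham knees.

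The call of Inhba changed with the inhibitor libraries in the fit, which share the estimate of spread with the others, and with the tool. Without inhibitor library 1 the vehicle over sham log2 fold change was again 2.29, with an edgeR adjusted p of 0.000136, and the inhibitor over sham value was 2.76 with an adjusted p of 3.28e-05. Without inhibitor libraries 1 and 2 these adjusted p-values were 6.31e-07 and 0.000122. With only the vehicle and sham libraries in the fit, the edgeR adjusted p was 4.32e-06. DESeq2 gave 0.000901 for vehicle over sham and 0.000255 for inhibitor over sham. Over all 17 alternatives the log2 fold change of vehicle over sham stayed between 1.55 and 2.59, and the adjusted p ranged from 6.31e-07 to 0.669.

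**Figure D2:**
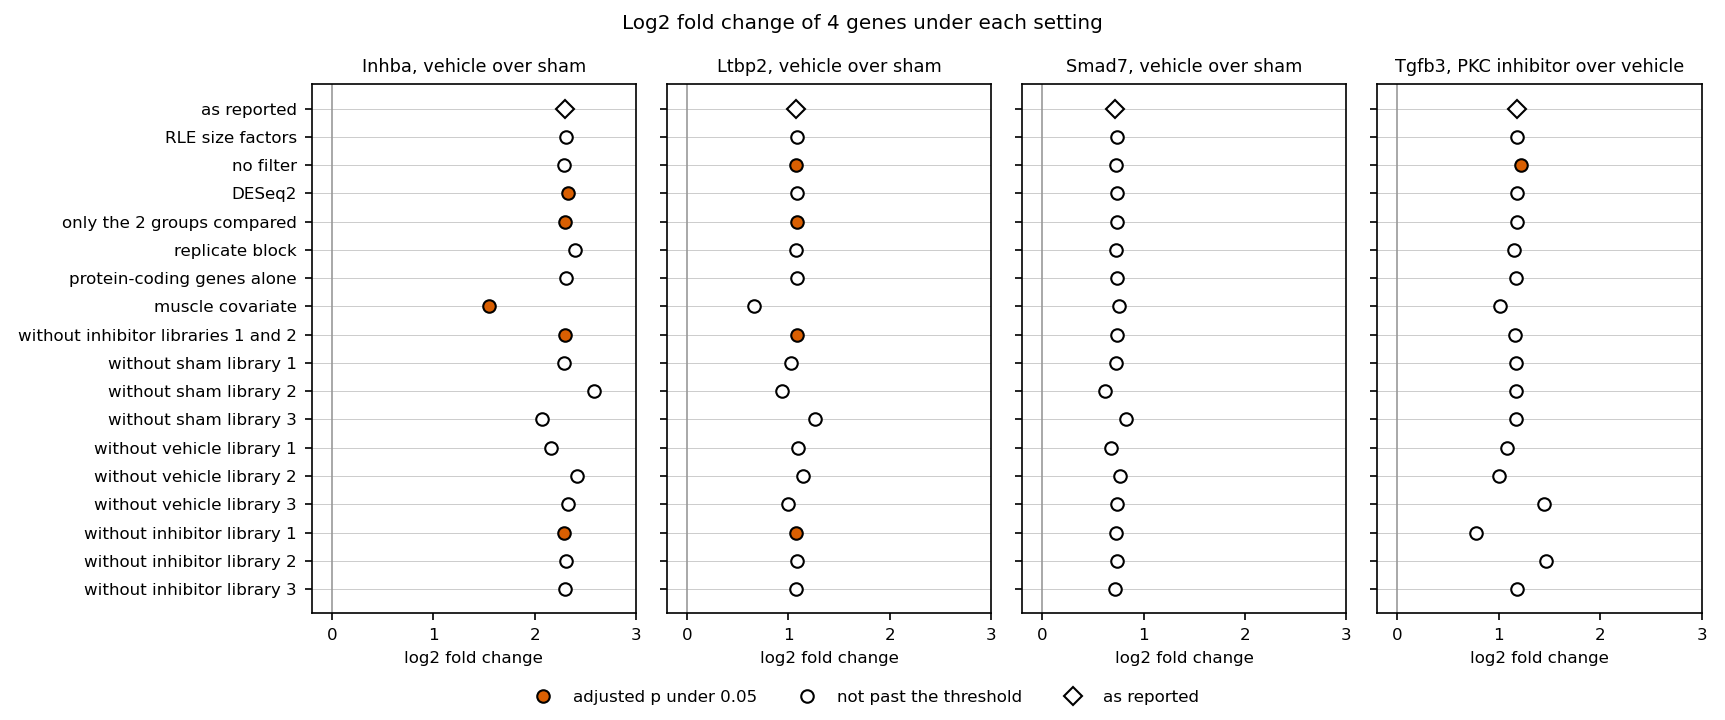
Log2 fold change (x axis) of Inhba, Ltbp2 and Smad7 for vehicle over sham and of Tgfb3 for inhibitor over vehicle, as reported and under each of the 17 alternatives (y axis). Filled points have an adjusted p under 0.05. The Inhba points lie between 1.55 and 2.59 and 5 of them are filled, while no Smad7 point is filled.

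Tgfb1, the most abundant TGF-beta isoform in many tissues and a product of immune cells and platelets, had its lowest mean in the inhibitor knees. It had 153.8, 260.2 and 337.5 normalised counts in inhibitor libraries 1 to 3, 352.3, 376.8 and 525.2 in vehicle libraries, and 344.2, 297.6 and 364.0 in sham libraries. Every inhibitor library was below every vehicle library, and both overlapped the sham range. The means were 250.5 ± 92.3 in inhibitor knees and 418 ± 93.5 in vehicle knees (SD, n = 3 each), a log2 fold change of -0.74 (SE 0.26, 95% interval -1.29 to -0.19). The edgeR p was 0.0112 and the adjusted p 0.21. Without inhibitor libraries 1 and 2 the log2 fold change was -0.31 (edgeR adjusted p = 0.804), and without inhibitor library 1 it was -0.49 (edgeR adjusted p = 0.368). Vehicle and sham knees differed by a log2 fold change of 0.32 (95% interval -0.23 to 0.87) and inhibitor and sham knees by -0.42 (95% interval -0.98 to 0.13). Beside these values, the summed level of 9 platelet and megakaryocyte genes, all with counts, was 450, 598 and 344 in inhibitor libraries, 695, 578 and 936 in vehicle libraries and 386 to 597 in sham libraries. That of 6 B lineage genes, all with counts, was 103 to 208, 325 to 348 and 394 to 445 in the same groups. The B lineage sums of inhibitor and vehicle libraries did not overlap. The platelet sums did overlap, and so did those of the other immune lists. The summed level of 10 monocyte and macrophage genes was 2723 to 4313 in inhibitor, 2439 to 3784 in vehicle and 2328 to 2887 in sham libraries, that of 8 neutrophil genes was 8206 to 18129, 8092 to 10436 and 15314 to 20729, and that of 5 T cell genes was 22.5 to 36.2, 17.7 to 33.2 and 17 to 45.9, all of these genes with counts. The part of these cells in the Tgfb1 values was not tested.

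Tgfb3, an isoform made by mesenchymal cells, had the opposite order of inhibitor and vehicle means. Its normalised counts were 424.5, 155.8 and 283.0 in inhibitor libraries 1 to 3, 109.7, 99.8 and 170.5 in vehicle libraries, and 175.6, 297.6 and 145.2 in sham libraries. The ranges of inhibitor and vehicle libraries overlapped, since inhibitor library 2 lay below vehicle library 3. The means were 288 ± 134 in inhibitor knees and 127 ± 38.3 in vehicle knees, a log2 fold change of 1.18 (SE 0.39, 95% interval 0.32 to 2.03) with an edgeR p of 0.0114 and an adjusted p of 0.211. With no filter on low counts this difference was called (log2 fold change 1.22, edgeR adjusted p = 0.000145). Without inhibitor library 1, in which Tgfb3 was highest, the log2 fold change was 0.77 (edgeR adjusted p = 0.327). In that library the summed level of 6 endothelial genes, all with counts, was 2152, against 418 and 357 in the other inhibitor libraries and 534 to 626 with vehicle, and the part of these cells was not tested. For vehicle over sham the log2 fold change of Tgfb3 was -0.71 (95% interval -1.57 to 0.16), and for inhibitor over sham it was 0.47 (95% interval -0.36 to 1.31).

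Tgfb2 was the least abundant member, with 23.4 to 46.7 normalised counts in inhibitor, 33.2 to 39.2 in vehicle and 30.2 to 69.5 in sham libraries. The 3 ranges overlapped. Its log2 fold change was -0.49 for vehicle over sham (95% interval -1.32 to 0.34), -0.12 for inhibitor over vehicle (95% interval -0.94 to 0.70) and -0.61 for inhibitor over sham (95% interval -1.42 to 0.21). With 20 to 60 reads per library, only large differences could have been resolved.

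**Figure D3:**
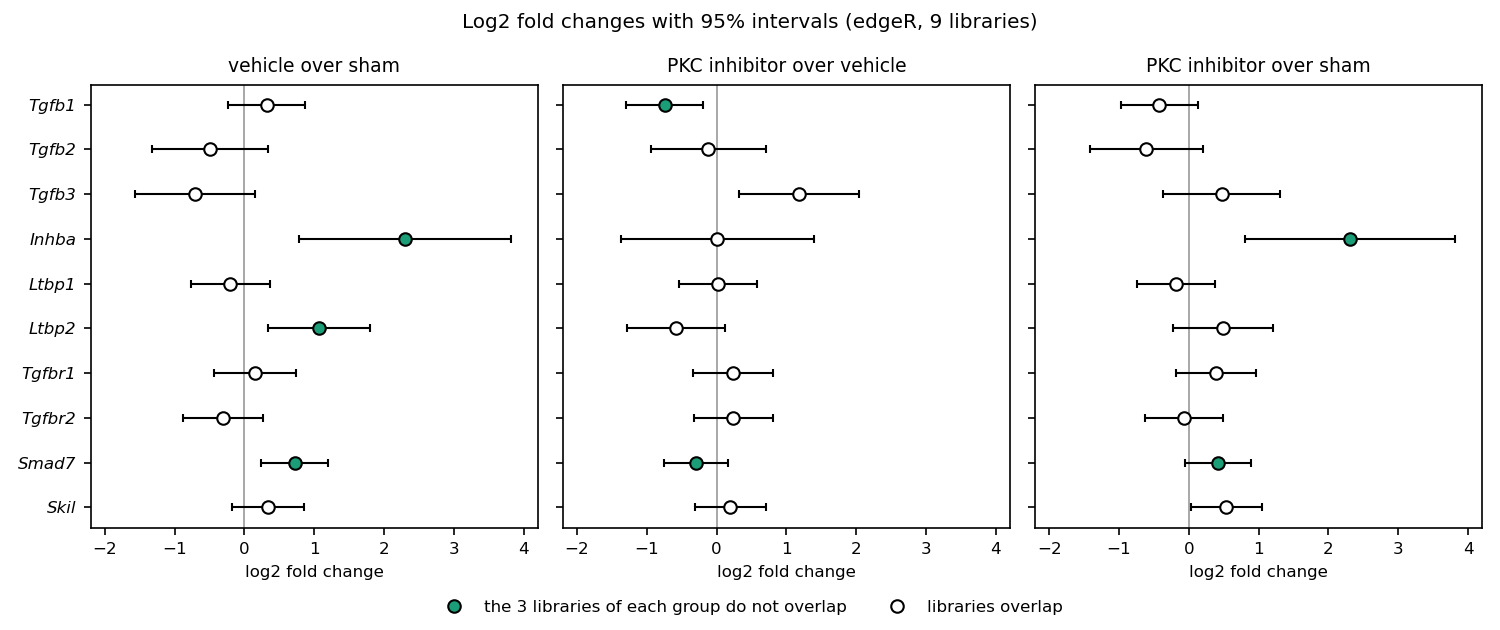
Log2 fold changes (x axis) of the 10 genes (y axis) in the 3 comparisons, with 95% intervals from the edgeR fit of 9 libraries. Filled points mark genes whose libraries do not overlap between the groups. Inhba (2.29), Ltbp2 (1.07) and Smad7 (0.72) are filled for vehicle over sham, and Tgfb1 (-0.74) and Smad7 (-0.30) for inhibitor over vehicle.

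The latent binding proteins differed from each other in their pattern. Ltbp2, an extracellular matrix protein of microfibrils that, unlike Ltbp1, does not bind latent TGF-beta, had 84.8, 261.8 and 190.8 normalised counts in inhibitor libraries 1 to 3. It had 260.9, 248.4 and 296.0 in vehicle libraries and 119.8, 103.6 and 162.2 in sham libraries. The vehicle libraries all lay above the sham libraries, and the inhibitor libraries reached from below the sham range into the vehicle range. The means were 268 ± 24.7 in vehicle knees and 128.5 ± 30.3 in sham knees (SD, n = 3 each), a 2.10-fold difference. On the log2 scale this was 1.07 (SE 0.34, 95% interval 0.34 to 1.80), with an edgeR p of 0.00721 and an adjusted p of 0.297. As for Inhba, the adjusted p fell below the threshold without inhibitor library 1 (0.00849), without inhibitor libraries 1 and 2 (0.0033) and with only the vehicle and sham libraries in the edgeR fit (0.00451). It also did so with no filter on low counts (0.00325). Leaving out inhibitor library 1 further gave an edgeR adjusted p of 0.0343 for inhibitor over sham knees. For inhibitor over vehicle the log2 fold change was -0.58 (95% interval -1.28 to 0.13), and inhibitor library 1, with the lowest Ltbp2 level, was again the library with the highest muscle sum. With the muscle covariate, which did not overlap between vehicle and sham libraries, the vehicle over sham value was 0.66 (edgeR adjusted p = 0.398).

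Ltbp1, which anchors latent TGF-beta in the matrix, had 115.5 to 154.5 normalised counts in inhibitor, 111.3 to 147.4 in vehicle and 90.7 to 188.8 in sham libraries. The sham range enclosed both others. Its log2 fold change was -0.20 for vehicle over sham (95% interval -0.77 to 0.37), 0.02 for inhibitor over vehicle (95% interval -0.54 to 0.58) and -0.18 for inhibitor over sham (95% interval -0.74 to 0.38).

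The sequences just upstream of Inhba and Ltbp2, the members with the largest differences between vehicle and sham knees, are shown beside that of Ltbp1, whose level overlapped between all groups. Each is the 250 bases before the RefSeq start site nearest to the gene's first exon base in the count table, on GRCm38.p6, printed 5′ to 3′ along the gene's strand. Inhba lies at chr13:16011601-16011850 on the plus strand, Ltbp2 at chr12:84876492-84876741 on the minus strand and Ltbp1 at chr17:75005279-75005528 on the plus strand. Capitals mark a cyclic AMP response element (CRE).
Inhba: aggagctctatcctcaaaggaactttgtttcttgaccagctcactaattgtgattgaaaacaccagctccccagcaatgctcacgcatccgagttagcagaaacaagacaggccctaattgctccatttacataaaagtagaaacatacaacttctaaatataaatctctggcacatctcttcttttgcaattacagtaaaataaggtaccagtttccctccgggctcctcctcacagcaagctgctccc
Ltbp2: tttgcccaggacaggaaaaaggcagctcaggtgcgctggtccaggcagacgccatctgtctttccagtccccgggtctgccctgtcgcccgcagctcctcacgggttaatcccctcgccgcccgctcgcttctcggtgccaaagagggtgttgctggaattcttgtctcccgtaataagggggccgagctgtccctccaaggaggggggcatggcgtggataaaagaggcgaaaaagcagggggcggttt
Ltbp1: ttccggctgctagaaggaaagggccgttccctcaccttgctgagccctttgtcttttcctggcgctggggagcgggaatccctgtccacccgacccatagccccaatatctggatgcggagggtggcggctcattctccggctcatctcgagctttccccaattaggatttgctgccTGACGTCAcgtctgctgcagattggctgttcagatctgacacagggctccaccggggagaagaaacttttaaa
These windows were searched on both strands for a SMAD element (CAGACA), a palindromic SMAD element (GTCTAGAC), an AP-1 element (TGACTCA), the CRE (TGACGTCA) and a TEAD element (GGAATG). No motif contains another. The Inhba window was AT-rich, with 43.2% G and C, and held none of the 5 motifs, as did the Ltbp2 window at 61.6%. The Ltbp1 window had 56.8% G and C and 1 CRE, from base -73 to base -66 before the start site. Another RefSeq start site of Ltbp1 lies inside the gene, and its window, at chr17:75178531-75178780, held 2 SMAD elements, from base -149 to base -144 and from base -98 to base -93. The Tgfb2 window held 1 SMAD element, from base -204 to base -199, and so did the window at chr4:47385966-47386215 of an internal start site of Tgfbr1, from base -203 to base -198. The windows of Tgfb1 and Tgfbr2 and that at the first exon of Tgfbr1 held none of the motifs. Of 32851 windows in the RefSeq table, 17.132% held the SMAD element, 0.167% the palindromic one, 4.463% the AP-1 element, 1.546% the CRE and 12.642% the TEAD element. Of the 10 members, 7 had a window in the table, and Tgfb3, Smad7 and Skil did not.

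Both signalling receptors stayed within overlapping ranges. Tgfbr1, the type I receptor that phosphorylates the SMADs, had 99.8 to 171.3 normalised counts in inhibitor, 84.6 to 146.2 in vehicle and 81.3 to 120.7 in sham libraries. Its log2 fold change was 0.15 for vehicle over sham (95% interval -0.44 to 0.74), 0.24 for inhibitor over vehicle (95% interval -0.33 to 0.81) and 0.39 for inhibitor over sham (95% interval -0.18 to 0.97). Tgfbr2, the type II receptor that binds the ligand, had 130.1 to 209.3 in inhibitor, 124.8 to 181.4 in vehicle and 123.3 to 235.7 in sham libraries. Its log2 fold change was -0.31 for vehicle over sham (95% interval -0.88 to 0.26), 0.24 for inhibitor over vehicle (95% interval -0.32 to 0.80) and -0.07 for inhibitor over sham (95% interval -0.63 to 0.49). None of these intervals excluded zero.

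Smad7, the inhibitory SMAD that blocks the type I receptor, had the smallest SD relative to its mean of all members within the inhibitor and within the vehicle group. It had 101.3, 102.8 and 98.7 normalised counts in inhibitor libraries 1 to 3, 131.3, 120.1 and 121.4 in vehicle libraries, and 75.6, 64.2 and 86.7 in sham libraries. The 3 groups did not overlap with each other, with the inhibitor libraries between the vehicle and the sham libraries. The means were 124 ± 6.12 in vehicle knees and 75.5 ± 11.3 in sham knees (SD, n = 3 each), a 1.65-fold difference. On the log2 scale this was 0.72 (SE 0.22, 95% interval 0.24 to 1.20), with an edgeR p of 0.00558 and an adjusted p of 0.281. The inhibitor mean was 101 ± 2.12, a log2 fold change of -0.30 from the vehicle mean (95% interval -0.76 to 0.16, edgeR adjusted p = 0.578) and of 0.42 from the sham mean (95% interval -0.05 to 0.90, edgeR adjusted p = 0.338). With 46 to 264 reads per library, the vehicle over sham value stayed between 0.62 and 0.83 over the 17 alternatives and was called in none, with edgeR or DESeq2 adjusted p-values of 0.154 to 0.65.

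Skil, which encodes the SMAD corepressor SnoN, had 134.3, 246.6 and 210.3 normalised counts in inhibitor libraries 1 to 3, 192.7, 174.7 and 148.7 in vehicle libraries, and 152.3, 136.3 and 116.9 in sham libraries. The groups overlapped in every comparison. Its largest difference was between inhibitor and sham knees, at 197 ± 57.3 and 135 ± 17.7 normalised counts (SD, n = 3 each). This log2 fold change was 0.54 (SE 0.24, 95% interval 0.03 to 1.05), with an edgeR p of 0.039 and an adjusted p of 0.246. Without inhibitor library 1, the lowest for Skil among the inhibitor libraries, the value was 0.76 and the edgeR adjusted p was 0.0439. For Skil the log2 fold change was 0.34 for vehicle over sham (95% interval -0.18 to 0.86) and 0.20 for inhibitor over vehicle (95% interval -0.31 to 0.70).

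Counting members whose libraries did not overlap gave 3 of 10 for vehicle against sham knees, all higher (Inhba, Ltbp2 and Smad7), where 17% of all genes tested did not overlap, 8.20% as higher and 8.76% as lower. For inhibitor against vehicle knees there were 2 of 10, both lower (Tgfb1 and Smad7), against 18.9% of genes, 8.44% as higher and 10.4% as lower. For inhibitor against sham knees there were 2 of 10, both higher (Inhba and Smad7), against 22.9% of genes, 11.2% as higher and 11.6% as lower. With 10 members, 1 gene more or less moves such a share by 10 percentage points, and the list as a whole was not tested.

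Levels of different genes were compared per kb of exon length, as normalised counts per kb. In inhibitor knees Tgfb3 was first at 85.1 ± 39.7 per kb, then Tgfb1 at 49.7 ± 18.3 and Inhba at 49.2 ± 37.4, with the ranges of neighbours overlapping. Smad7 (22.3 per kb), Ltbp2 (21.9), Tgfbr2 (21.4), Tgfbr1 (20.4) and Skil (20.3) followed closely, then Ltbp1 at 12.4 and Tgfb2 at 5.93. Ltbp1 and Tgfb2 were the 1 neighbouring pair in that order whose libraries did not overlap. In vehicle knees Tgfb1 led at 82.9 ± 18.6 per kb, followed by Inhba at 49.1 ± 8.06, Tgfb3 at 37.4 ± 11.3, Ltbp2 at 32.8 ± 3.01 and Smad7 at 27.5 ± 1.35. Tgfbr2 (18.1 per kb), Skil (17.7), Tgfbr1 (17.2), Ltbp1 (12.2) and Tgfb2 (6.29) were lower, and 4 neighbouring pairs were separate. These were Tgfb1 over Inhba, Ltbp2 over Smad7, Smad7 over Tgfbr2 and Ltbp1 over Tgfb2. In sham knees Tgfb1 at 66.5 ± 6.76 per kb and Tgfb3 at 60.9 ± 23.8 stood above Tgfbr2 at 22.5 ± 6.95, and this step was the 1 separate neighbouring pair. Smad7 (16.7 per kb), Ltbp2 (15.7), Tgfbr1 (15.5), Ltbp1 (14.1) and Skil (13.9) came next, with Inhba at 9.85 ± 3.67 and Tgfb2 at 8.89 ± 3.42 last. Inhba thus had rank 3 of 10 in inhibitor knees, rank 2 in vehicle knees and rank 9 in sham knees.

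In the mm10 coordinates of the count table, the outermost exon bases were at chr7:25687002-25705077 for Tgfb1, chr1:186622792-186705989 for Tgfb2, chr12:86056745-86079041 for Tgfb3 and chr13:16011851-16031621 for Inhba. They were at chr17:75005568-75392512 for Ltbp1, chr12:84783212-84876532 for Ltbp2, chr4:47353222-47414931 for Tgfbr1, chr9:116084293-116175360 for Tgfbr2 and chr3:31095058-31122577 for Skil. No exon of a member overlapped an exon of another gene on the same strand, so overlapping exons did not mix these members with a neighbour. Reads that map to several places were also counted in full, and their part in these counts was not examined.

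The genes whose levels ran most like those of a member were taken for the member with the smallest unadjusted p. Likeness was Pearson's r of log2 CPM (counts scaled to library size) over the 9 libraries, a description that includes the group differences themselves. Smad7, first for vehicle against sham knees, was most like Baiap2 (r = 0.942), Psmd7 (0.940), Serpina3m (0.938), Sbsn (0.926) and Gm9396 (0.925). Tgfb1, first for inhibitor against vehicle knees, was most like Relt (r = 0.959), Fyb (0.955), Tmem150b (0.953), Cdc25c (0.950) and Chaf1b (0.943).

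Other genes of the pathway were read from 5 lists by role, outside the 10 members. Among 14 tested of 15 transcriptional targets, 1 rose in vehicle against sham knees, 0 changed in inhibitor against vehicle knees, and 4 rose in inhibitor against sham knees. Of 6 tested ligands and soluble antagonists 1 rose, and of 13 latency and activation genes 1 rose, both in inhibitor against sham knees. The 8 tested receptors and co-receptors and the 13 SMADs and SMAD regulators had 0 calls in every comparison, and in all 5 lists 0 genes fell. Of all genes tested, edgeR called 0.282% as higher for vehicle over sham, 0.0289% for inhibitor over vehicle and 1.27% for inhibitor over sham. It called 0.0217%, 0.702% and 2.68% as lower in the same order. For inhibitor over vehicle edgeR called 0 genes of these lists. In that comparison Fstl1, from the list of ligands and antagonists, and 1 target were higher at an unadjusted p under 0.05. By the same measure 2 latency genes and 2 targets were lower. At an unadjusted edgeR p under 0.05, no receptor was higher in any comparison and 1, Bambi, was lower in inhibitor than in sham knees (log2 fold change -1.17, edgeR adjusted p = 0.189). For the SMADs and their regulators that count was 2 higher for vehicle over sham, 0 for inhibitor over vehicle and 3 higher for inhibitor over sham. Over all genes tested, 4.47%, 5.19% and 7.83% were higher at that unadjusted threshold for vehicle over sham, inhibitor over vehicle and inhibitor over sham, and 3.81%, 8.25% and 10.1% were lower. DESeq2 called 7, 2 and 9 genes of the 5 lists together in the 3 comparisons, against 1, 0 and 6 with edgeR, and 1.13%, 2.58% and 6.69% of all genes with DESeq2. With only the groups compared in the fit, edgeR called 8, 0 and 1, beside 2.30%, 0.0229% and 1.5% of all genes tested. For inhibitor over sham 6 targets were higher and 1 was lower at that unadjusted threshold, and 2 latency genes were higher and 2 lower. Median log2 fold changes of the targets were 0.62 for vehicle over sham, -0.04 for inhibitor over vehicle and 0.99 for inhibitor over sham, beside -0.02, 0.04 and 0.03 over all genes. The lists were chosen with earlier results of these data known, so these medians describe the chosen genes and are no test of the targets. Col1a1, the target with the highest counts, was lower in every inhibitor than in every vehicle library (log2 fold change -1.14, edgeR adjusted p = 0.247).

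Cdkn1a, which encodes the cell cycle inhibitor p21, rose in inhibitor over sham knees. It had 219, 301 and 286 normalised counts in inhibitor libraries 1 to 3, 210 to 245 in vehicle libraries and 120, 142 and 90.5 in sham libraries. All inhibitor and all vehicle libraries were above all sham libraries. The log2 fold change of inhibitor over sham was 1.19 (SE 0.22, edgeR adjusted p = 0.0095) and was called in all 17 alternatives. That of vehicle over sham was 0.98 (edgeR adjusted p = 0.0997), and that of inhibitor over vehicle was 0.21 (edgeR adjusted p = 0.699).

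Lox, the enzyme that cross-links collagen and elastin, rose in both injured groups. It had 317, 452 and 511 normalised counts in inhibitor libraries, 502, 407 and 416 in vehicle libraries and 155, 232 and 204 in sham libraries, so that every injured library lay above every sham library. The log2 fold change was 1.17 for vehicle over sham (SE 0.23, edgeR adjusted p = 0.0415) and 1.12 for inhibitor over sham (SE 0.23, edgeR adjusted p = 0.0152). The vehicle over sham call was lost without any single sham library (edgeR adjusted p = 0.269, 0.153 and 0.155 without sham libraries 1, 2 and 3) or vehicle library (0.265, 0.0873 and 0.196 without vehicle libraries 1, 2 and 3). The inhibitor over sham call was lost without sham library 1 (0.0901) or 3 (0.0551) and with only the inhibitor and sham libraries in the fit (0.0580). The counts of called pathway genes moved likewise, to 7 for vehicle over sham and 10 for inhibitor over sham without inhibitor library 1, to 2 for vehicle over sham without inhibitor library 2, and to 0 for vehicle over sham without any 1 sham or vehicle library. Of all genes tested, 1.65% and 5.95% were called in the first of these fits and 0.612% in the second, and at most 0.151% were called for vehicle over sham without 1 sham or vehicle library. For inhibitor over sham they were 2, 2 and 1 without sham libraries 1, 2 and 3, where 0.972%, 1.78% and 1.04% of all genes were called. Without inhibitor libraries 1 and 2 together they were 8, 0 and 3 in the 3 comparisons, beside 2.06%, 0.137% and 1.19% of all genes, and in that fit the inhibitor over sham calls of Fstl1, Lrrc32 and Bhlhe40 (edgeR adjusted p = 0.159, 0.232 and 0.226) were lost.

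**Figure D4:**
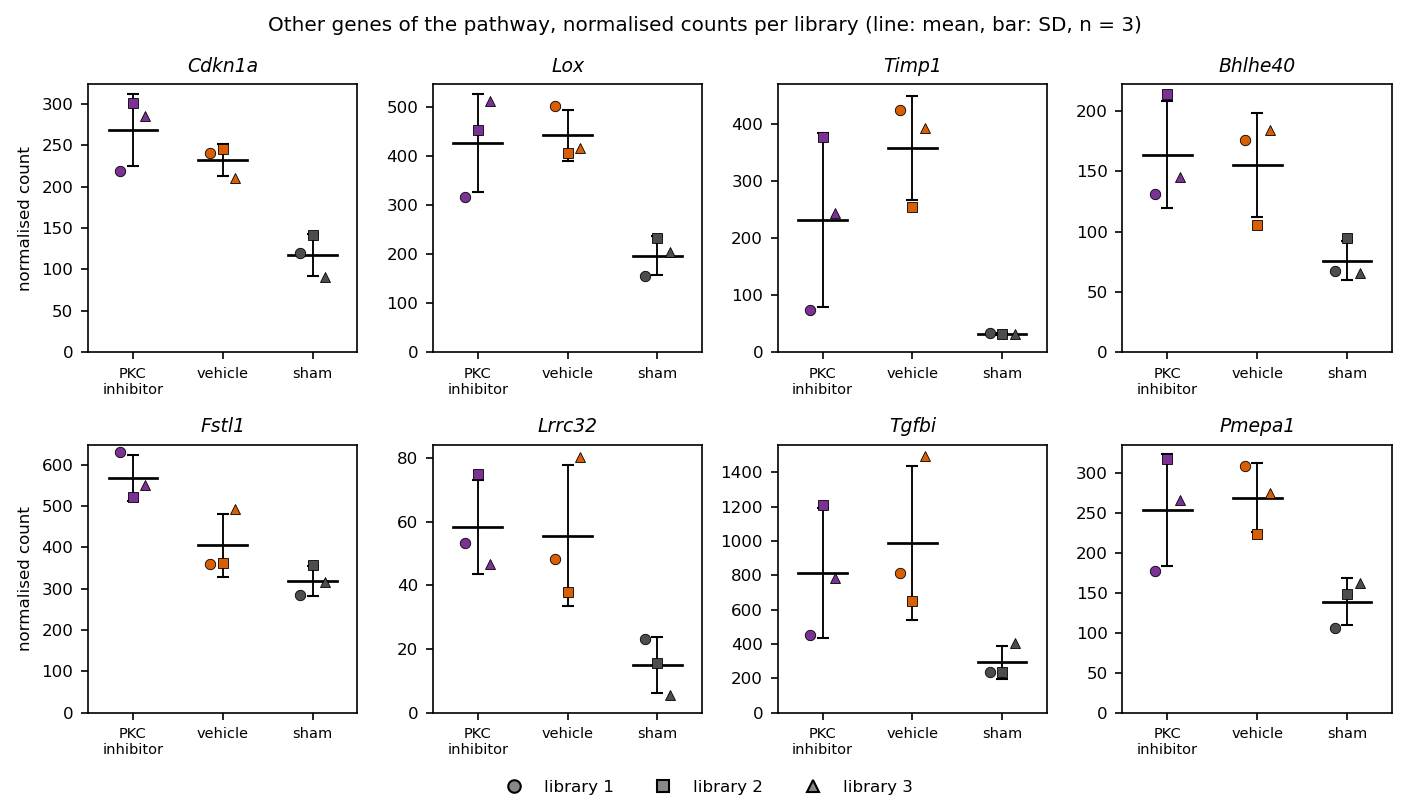
Normalised counts (y axis, linear from 0) of 8 other pathway genes in the 9 libraries, with the group mean as a line and the SD as a bar (n = 3 per group). Inhibitor library 1, at 74.3 for Timp1, is the lowest of the injured knees, while the vehicle libraries lie between 254 and 425 and the sham libraries between 31.5 and 33.7.

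Timp1, an inhibitor of matrix metalloproteases, had a log2 fold change of 3.46 for vehicle over sham knees (edgeR adjusted p = 0.0577). For inhibitor over vehicle knees it was -0.61 (edgeR adjusted p = 0.621). Timp1 passed the threshold only in inhibitor over sham knees (log2 fold change 2.84, SE 0.56, edgeR adjusted p = 0.0306). Its levels were 74.3, 378 and 245 normalised counts in inhibitor libraries, 425, 254 and 394 in vehicle libraries and 33.7, 31.5 and 32.1 in sham libraries, without overlap between injured and sham knees. That call was lost without sham library 1, 2 or 3 (edgeR adjusted p = 0.128, 0.103 and 0.129), vehicle library 1 or 3 (0.0511 and 0.0553) or inhibitor library 3 (0.0644), or with only the groups compared in the fit (0.0687), and it held in 9 of 17 alternatives.

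Bhlhe40, a transcriptional repressor, had 131, 214 and 145 normalised counts in inhibitor libraries, 106 to 184 in vehicle libraries and 66.0 to 94.4 in sham libraries. Its log2 fold change was 1.02 for vehicle over sham (edgeR adjusted p = 0.191) and 0.087 for inhibitor over vehicle (edgeR adjusted p = 0.921). Bhlhe40 passed the threshold only in inhibitor over sham knees (log2 fold change 1.11, SE 0.28, edgeR adjusted p = 0.0365). The call was lost without sham library 1, 2 or 3 (edgeR adjusted p = 0.151, 0.0579 and 0.132), vehicle library 1 or 3 (0.058 and 0.0586) or inhibitor library 2 (0.141), or with only the groups compared in the fit (0.0716), and it held in 8 of 17 alternatives.

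Fstl1, a secreted follistatin-like glycoprotein, had 631, 522 and 552 normalised counts in inhibitor libraries, 359, 363 and 494 in vehicle libraries and 285, 358 and 315 in sham libraries. The inhibitor libraries were the highest 3 of the 9, and Fstl1 rose in inhibitor over sham knees by a log2 fold change of 0.83 (SE 0.20, edgeR adjusted p = 0.0303). Its log2 fold change of inhibitor over vehicle was 0.49 (edgeR adjusted p = 0.281). The first call was lost without sham library 1, 2 or 3 (edgeR adjusted p = 0.143, 0.0661 and 0.0924) or with only the groups compared in the fit (0.0713), and it held in 11 of 17 alternatives.

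Lrrc32, which encodes the protein GARP that holds latent TGF-beta on the cell surface, had 53.3, 75.2 and 46.7 normalised counts in inhibitor libraries, 48.2, 38.0 and 80.5 in vehicle libraries and 23.3, 15.7 and 5.66 in sham libraries. Every injured library was above every sham library. It rose in inhibitor over sham knees (log2 fold change 1.92, SE 0.45, edgeR adjusted p = 0.0286), on 300 reads over the inhibitor libraries and 35 over the sham libraries. The call was lost without sham library 2 or 3 (edgeR adjusted p = 0.0853 and 0.0951) or inhibitor library 2 (0.0923), or with only the groups compared in the fit (0.0681), and it held in 11 of 17 alternatives. The vehicle over sham log2 fold change was 1.83 (edgeR adjusted p = 0.152).

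Several other pathway genes were separate between groups without passing the threshold. Ccn2, which encodes the matricellular protein CTGF, had 166, 152 and 186 normalised counts in inhibitor libraries, 244, 204 and 262 in vehicle libraries and 145, 113 and 132 in sham libraries. The 3 groups did not overlap with each other, with the inhibitor libraries between the vehicle and the sham libraries. The log2 fold change of Ccn2 was 0.86 for vehicle over sham (SE 0.20, edgeR adjusted p = 0.127), -0.50 for inhibitor over vehicle (SE 0.20, edgeR adjusted p = 0.278) and 0.36 for inhibitor over sham (SE 0.20, edgeR adjusted p = 0.379). Tgfbi, a matrix protein named for its induction by TGF-beta, averaged 815 ± 378 in inhibitor, 987 ± 448 in vehicle and 294 ± 96.7 in sham knees (SD, n = 3 each), with a log2 fold change of 1.75 for vehicle over sham (edgeR adjusted p = 0.191). Pmepa1, a feedback inhibitor that binds SMADs, averaged 254 ± 70.7 in inhibitor, 269 ± 43.1 in vehicle and 139 ± 29.3 in sham knees, with log2 fold changes of 0.96 for vehicle over sham (edgeR adjusted p = 0.169) and 0.88 for inhibitor over sham (edgeR adjusted p = 0.0594).

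Of the activators of latent TGF-beta, Thbs1 averaged 632 ± 444 in inhibitor, 1109 ± 527 in vehicle and 328 ± 122 in sham knees, a log2 fold change of 1.76 for vehicle over sham (edgeR adjusted p = 0.454). The ubiquitin ligase gene Smurf1, which acts on receptors and SMADs, averaged 105 ± 18.1, 93.7 ± 19.3 and 57.0 ± 22.8 in inhibitor, vehicle and sham knees, with a log2 fold change of 0.73 for vehicle over sham (edgeR adjusted p = 0.523). The related Smurf2, which shares 58 bp of exon with a microRNA gene, had a log2 fold change of 0.39 for inhibitor over vehicle (edgeR adjusted p = 0.50). Zfyve9, an adaptor that brings SMADs to the receptor, had a log2 fold change of 0.37 in the same comparison (edgeR adjusted p = 0.593). The latent binding protein gene Ltbp4 was lower in all vehicle than in all sham libraries, at 130.5 ± 19.5 against 269 ± 133, yet the log2 fold change of -1.04 had an edgeR adjusted p of 0.729.

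Bmp1, a protease that processes procollagens, averaged 169 ± 46.9 in inhibitor knees and 276 ± 55.1 in vehicle knees without overlap, a log2 fold change of -0.72 (edgeR adjusted p = 0.191). Gdf11, a ligand that signals through activin receptors, had a log2 fold change of 0.48 for inhibitor over vehicle (edgeR adjusted p = 0.50). The co-receptor genes Eng and Tgfbr3 had log2 fold changes of 0.53 (edgeR adjusted p = 0.626) and 0.44 (edgeR adjusted p = 0.533) in that comparison, and Tgfbr3 shares 297 bp of exon with another gene. The smooth muscle and myofibroblast genes Acta2 and Tagln were highest in inhibitor library 1, at 890 and 572 normalised counts, against 62.3 to 187 and 108 to 130 in the other inhibitor libraries. Their log2 fold changes of inhibitor over vehicle were 1.63 (edgeR adjusted p = 0.493) and 1.97 (edgeR adjusted p = 0.276). That library was also the one with the highest muscle and endothelial sums, and the part of these tissues was not tested.

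**Figure D5:**
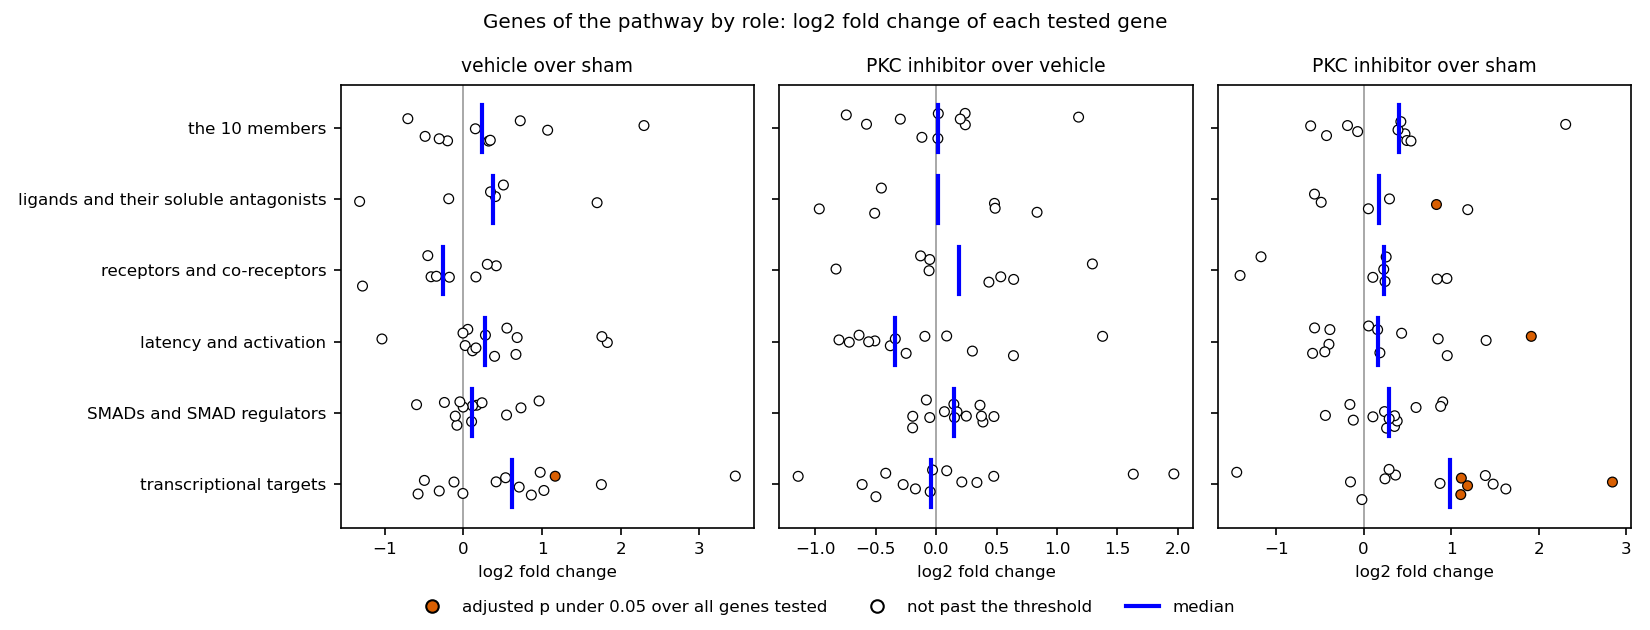
Log2 fold change (x axis) of every tested gene of the 10 members and of the 5 other lists (y axis) in the 3 comparisons. Each point is a gene, filled where the adjusted p is under 0.05, and the vertical bar is the median. The targets have a median of 0.62 for vehicle over sham, -0.04 for inhibitor over vehicle and 0.99 for inhibitor over sham. The lists were chosen with earlier results of these data known, and the medians were not tested.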

How the data were processed

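Total RNA, isolated with TRIzol and cleared of ribosomal RNA, was sequenced as read pairs, per the labels' protocols. HISAT2 and mm10 are named in the submitters' processing notes. The authors deposited raw counts per gene name, made with featureCounts 2.0.1 over GENCODE M25 exons on the reverse strand, with multi-mapping and overlapping reads counted in full, per the file headers. Columns were given to samples by name. The other 27 sample columns of the series carry codes that match no label and were not used.

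Of 55291 genes, 13823 were kept by filterByExpr. TMM scaling was used, and all 9 libraries entered a single fit (edgeR 4.0.16, limma 3.58.1, R 4.3.3; robust quasi-likelihood F tests, Benjamini-Hochberg threshold 0.05). DESeq2 1.42.0 was an alternative. Tables and figures came from Python 3.11.15 (numpy 2.4.6, pandas 2.3.3, matplotlib 3.10.9), and the fit was tested on simulated data. A normalised count is the count over the library's effective size times the mean effective size. SE is the log2 fold change over the root of F. The 95% intervals use the moderated degrees of freedom.

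The members and lists were chosen with earlier results of these data known. All members are named. Of the other lists, genes past the threshold are named, else the 2 per list and comparison with the largest change (mean of at least 50 normalised counts, for vehicle over sham and for inhibitor over vehicle). Genes most like a member are the 5 with the highest r. A gene of the target list is not reported here and was left out of that list. Bambi and Col1a1 fall outside this rule and were chosen after their values were seen.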

Additional observations from a re-analysis of the deposited data

How the results depend on the processing

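With 17 alternatives to each comparison, 475 member values kept their direction and side of the threshold, 16 passed it and 19 changed sign, none of them called. The gene counts 42 (vehicle over sham), 101 (inhibitor over vehicle) and 546 (inhibitor over sham) became 262, 554 and 1056 with no filter, 155, 355 and 885 with DESeq2, 291, 3 and 198 with only the groups compared, 198, 328 and 1159 with the muscle covariate, and 301, 20 and 174 without inhibitor libraries 1 and 2. With no filter, these counts were 0.973%, 2.06% and 3.92% of 26929 genes. With DESeq2 they were 1.13%, 2.58% and 6.69%, and with the muscle covariate 1.43%, 2.37% and 8.38%, of the genes tested. Leaving out 1 library gave 1 to 234, 0 to 256 and 141 to 841, at most 1.65%, 1.76% and 5.95% of the genes tested. Called members, 0 at first, were 1, 1 and 0 with no filter, 1, 0 and 1 with DESeq2 and with the muscle covariate, 2, 0 and 0 with only the groups compared, 2, 0 and 1 without inhibitor libraries 1 and 2, and 0 to 2, 0 and 0 to 3 without 1 library. The cause was not tested. Deviations from the group means correlated between -0.24 and 0.069 for same-numbered libraries and between -0.17 and 0.20 for other pairs. With 3 libraries a group, this cannot show whether libraries were paired or shared a batch. A replicate block gave 24, 103 and 420 genes (0.174%, 0.745% and 3.04% of those tested) and 0 members. The block ended the call of Lox for vehicle over sham (edgeR adjusted p = 0.0714) and those of Timp1, Bhlhe40, Fstl1 and Lrrc32 for inhibitor over sham (0.0694, 0.0626, 0.0568 and 0.0501).

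Sign changes for inhibitor over vehicle were Inhba at -0.23 (replicate block), -0.19 (muscle covariate) and -0.096 (without inhibitor libraries 1 and 2) and Tgfb2 at 0.35 (without inhibitor libraries 1 and 2). Leaving out 1 library spread these log2 fold changes from -0.75 to 0.47 for Inhba, -0.39 to 0.097 for Tgfb2, -0.020 to 0.42 for Skil and -0.11 to 0.11 for Ltbp1. For inhibitor over sham, without inhibitor libraries 1 and 2, Tgfb1 was at 0.024, Ltbp1 at 0.059 and Tgfbr2 at 0.048, and Tgfbr2 was at 0.13 with the muscle covariate. Leaving out 1 library gave -0.46 to 0.014 for Ltbp1 and -0.30 to 0.14 for Tgfbr2, and -0.074 to 0.32 for Tgfbr1 in vehicle over sham.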
